A study of Mus musculus with 8 samples.

Results

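Aminoacyl-tRNA synthetases are the enzymes that join each amino acid to its tRNA. All rows of the count table whose Ensembl identifier maps to a synthetase symbol were taken, 37 genes of 55414 rows: 20 cytosolic enzymes and 17 mitochondrial enzymes whose symbols end in ars2. The rule used names only and no measured value, and all 37 genes passed the filter on low counts. The macrophages were sorted from the spleen of C57BL/6J mice of WT genotype, either 2 h after cecal ligation and puncture (CLP), a surgical model of sepsis in which gut bacteria leak into the abdomen, or 2 h after sham surgery, the control operation. The cells were red pulp macrophages, which clear aged red blood cells, isolated by flow cytometry, and each group has 4 RNA-seq libraries. No source used here states the age or sex of the mice or says that the libraries of a group are separate mice, and p-values therefore cover the variation among libraries only, which may be technical. In bulk libraries, fewer cells of a type and less RNA per cell cannot be told apart.

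The cytosolic synthetases charge the tRNAs that feed ribosomes in the cytosol, while the mitochondrial ones are encoded in the nucleus, imported, and charge the tRNAs used to translate the few proteins encoded by mitochondrial DNA. Glycyl- and lysyl-tRNA synthetase (Gars and Kars) serve both compartments from 1 gene each and are counted here as cytosolic. Several cytosolic enzymes are held in a multisynthetase complex with the scaffold proteins Aimp1, Aimp2 and Eef1e1. Cytosolic synthetase genes are textbook targets of ATF4, the transcription factor made when eIF2 is phosphorylated during amino acid shortage. Synthetases fall into class I and class II by the fold of their catalytic domain.

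Total counts were 17333748 to 21409078 in the CLP libraries and 15392992 to 25665633 in the sham libraries. Levels are CPM, counts scaled to a common library size by TMM factors, and 1 CPM stands for 15.1 to 27.6 reads of a library. Markers of red pulp macrophages summed to 42430 to 48050 CPM in CLP and 36370 to 44760 CPM in sham libraries. Of these 12 markers, 5 were higher and 2 lower in edgeR, beside 19.8% higher and 23.5% lower among all genes tested. Of the marker lists for 10 other cell types, 3 had summed levels that did not overlap between the groups. Among single genes tested, 41.5% did not overlap. In lists whose sums overlapped, 2 of 3 tested neutrophil, 1 of 6 monocyte, 3 of 8 erythroid, 2 of 6 dendritic and 3 of 8 endothelial and stromal markers were higher. The erythroid, B cell, NK cell and dendritic cell lists each had 1 lower marker. The largest of these overlapping sums were the erythroid (760 to 1289 CPM in CLP, 334.9 to 1575 CPM in sham libraries) and the endothelial and stromal (796.8 to 887.7 CPM in CLP, 798.5 to 883.3 CPM in sham libraries). The platelet list reached 25.3 to 30.2 CPM in CLP against 9.70 to 12.2 CPM in sham libraries, with 4 of its 5 tested markers higher. The plasma cell list reached 896.8 to 983.3 CPM in CLP against 282.5 to 450.2 CPM in sham libraries, but it holds Xbp1 and Prdm1, which macrophages express too, and its Mzb1 and Tnfrsf17 stayed below 1 CPM in every library. The T cell list reached 109.5 to 137.4 CPM in CLP against 100.7 to 109.1 CPM in sham libraries, while its 8 markers did not pass singly in edgeR. No marker of these 3 lists was at 0 in all libraries, and the part of these cells in the results below was not tested.

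Most mitochondrial synthetase mRNAs fell after CLP, and most cytosolic ones did not pass the test. Of 17 mitochondrial synthetases, 11 were lower and 0 higher in edgeR's quasi-likelihood test at an adjusted p under 0.05, while 23.5% of the 14004 genes tested were lower and 19.8% higher. Of 20 cytosolic synthetases, 2 were higher (Eprs and Qars), 1 was lower (Iars) and 17 did not pass, where 43.3% of all genes tested changed in either direction. The median log2 fold change, CLP minus sham, was -0.50 for the mitochondrial and -0.06 for the cytosolic genes, beside -0.05 over all genes tested. CLP lay below sham in all libraries for 9 mitochondrial and 1 cytosolic gene (22.8% of all genes) and above it for 0 mitochondrial and 2 cytosolic genes (18.7% of all genes). Without CLP replicate 4, 7 mitochondrial genes were lower.

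The mitochondrial synthetases are the less abundant set, and less abundant genes leaned downward in these data. Among the 5037 genes with a mean of 2 to 20 CPM, a range chosen after the values were seen, 44% changed (33.1% lower and 10.9% higher), and their median log2 fold change was -0.26. In that range lay 15 mitochondrial synthetases, of which 11 were lower, with a median log2 fold change of -0.53. It held 1 cytosolic synthetase, Cars, with a log2 fold change of -0.13 (adjusted p = 0.433). The other 19 cytosolic genes lay between 20 and 200 CPM, where 48.5% of 5228 genes changed (26.4% higher and 22.1% lower). Low abundance moves with the mitochondrial decrease, and its part in it was not tested.

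**Figure D1:**
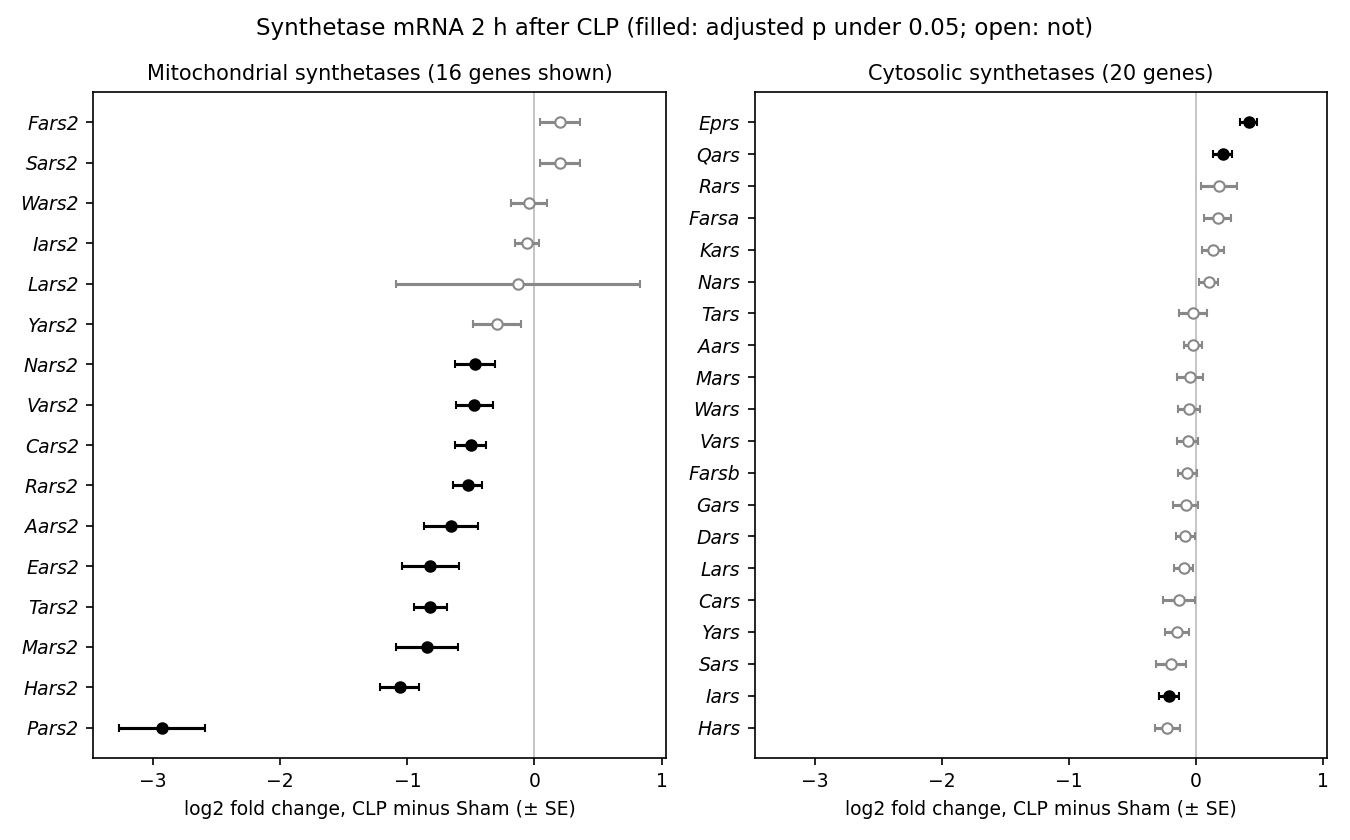
Log2 fold change, CLP minus sham, with its standard error for 16 of the 17 mitochondrial (left) and the 20 cytosolic (right) synthetase genes, sorted within each panel. Filled points passed an adjusted p of 0.05 in edgeR; 10 of the mitochondrial genes drawn stand left of 0 and filled, and the cytosolic genes lie between -0.23 and 0.41.

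Among the mitochondrial enzymes, Pars2, which charges mitochondrial tRNA with proline, had the lowest log2 fold change. It was at 0.833, 0.307, 0.493 and 0.265 CPM in the CLP libraries, against 2.93, 4.08, 3.96 and 3.54 CPM in the sham libraries. These values rest on 13, 6, 9 and 4 reads in CLP, against 81, 99, 68 and 86 reads in sham libraries. Every CLP library lay below every sham library, and Pars2 averaged 0.474 ± 0.259 CPM in CLP and 3.63 ± 0.52 CPM in sham (SD, n = 4 each). The log2 fold change was -2.93 (SE 0.34, adjusted p = 5.5e-05 in edgeR), and it stayed past the threshold when any 1 library was left out (adjusted p up to 0.000347).

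Hars2, the mitochondrial histidine enzyme, was at 8.65, 7.98, 7.84 and 5.49 CPM in the CLP libraries, against 13.7, 16.8, 14.6 and 17.4 CPM in the sham libraries. The groups did not overlap, and CLP replicate 4 was the lowest library. Its log2 fold change was -1.06 (SE 0.16, adjusted p = 0.000283 in edgeR). Hars, the cytosolic histidine enzyme, is encoded beside it on the other strand, and the annotated exons of both genes overlap. Hars averaged 20.4 ± 0.86 CPM in CLP and 23.9 ± 2.43 CPM in sham (SD, n = 4 each), and the groups did not overlap, but it did not pass the test (log2 fold change -0.23, adjusted p = 0.0853 in edgeR).

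Tars2, which charges mitochondrial threonine tRNA, was at 9.74, 13.2, 11.9 and 14.2 CPM in the CLP libraries, against 22.1, 20.1, 20.2 and 24.1 CPM in the sham libraries. The groups stood well apart (log2 fold change -0.82, SE 0.13, adjusted p = 0.000453 in edgeR). Ears2, the mitochondrial glutamate enzyme, was at 6.34, 3.53, 6.91 and 7.21 CPM in CLP, against 12.0, 8.52, 9.26 and 12.4 CPM in sham libraries. CLP replicate 2 was the lowest, the groups did not overlap, and the log2 fold change was -0.82 (SE 0.22, adjusted p = 0.0121 in edgeR). Mars2, the mitochondrial methionine enzyme, was at 3.33, 4.55, 8.0 and 3.71 CPM in CLP, against 8.65, 8.94, 8.56 and 9.17 CPM in sham libraries. The sham libraries were close together while CLP replicate 3 came near to them. The log2 fold change of Mars2 was -0.84 (SE 0.25, adjusted p = 0.0163 in edgeR, 0.0525 without CLP replicate 4).

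Aars2, the mitochondrial alanine enzyme, was at 4.61, 5.68, 2.79 and 4.23 CPM in the CLP libraries, against 6.77, 5.97, 7.81 and 6.87 CPM in the sham libraries. The highest CLP library lay just under the lowest sham library, and the log2 fold change was -0.66 (SE 0.21, adjusted p = 0.0262 in edgeR). Its call was lost without any 1 of CLP replicate 4 and Sham replicates 1, 3 and 4, at an adjusted p of up to 0.0898. Rars2, the mitochondrial arginine enzyme, was at 9.86, 10.99, 11.2 and 10.7 CPM in CLP, against 15.2, 16.0, 13.6 and 16.8 CPM in sham libraries. Its CLP libraries were more alike than the sham libraries and lay wholly below them (log2 fold change -0.53, SE 0.11, adjusted p = 0.00286 in edgeR).

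Cars2, Vars2 and Nars2 were lower by smaller amounts. Cars2, which charges cysteine, averaged 10.1 ± 0.6 CPM in CLP and 14.3 ± 1.6 CPM in sham (SD, n = 4 each), without overlap (log2 fold change -0.50, adjusted p = 0.00635 in edgeR). Vars2, which charges valine, averaged 10.5 ± 1.6 CPM in CLP and 14.6 ± 1.7 CPM in sham, and Nars2, which charges asparagine, averaged 8.08 ± 1.31 CPM in CLP and 11.2 ± 1.4 CPM in sham. The groups overlapped for both genes. Their log2 fold changes were -0.47 for Vars2 (adjusted p = 0.0193) and -0.47 for Nars2 (adjusted p = 0.0313) in edgeR. Both calls were lost without any 1 of CLP replicate 4 and Sham replicates 1, 2 and 4, and that of Nars2 also without CLP replicate 1 or CLP replicate 2. The highest adjusted p was then 0.0794 for Vars2 and 0.0896 for Nars2.

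**Figure D2:**
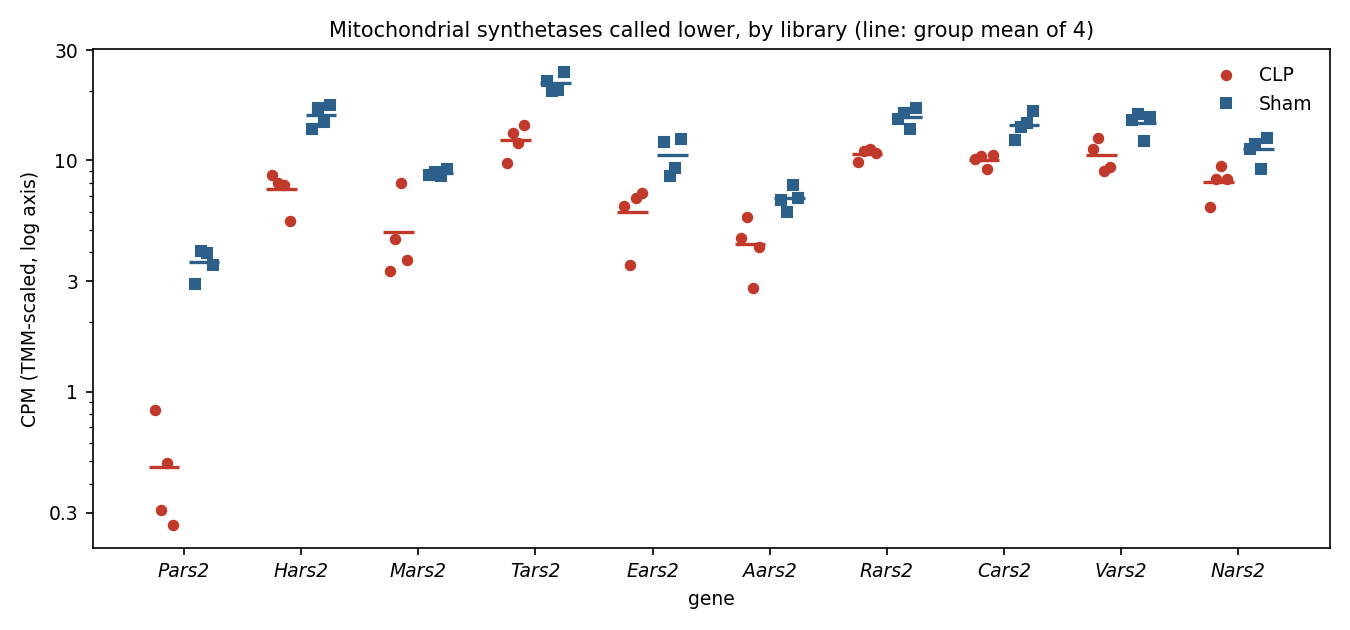
Level of 10 of the 11 mitochondrial synthetases that fell, in CPM on a log axis, with 1 point per library (CLP circles, sham squares) and a line at each group mean. Pars2 stands lowest, at 0.474 CPM on average in CLP and 3.63 CPM in sham, and Vars2 and Nars2 are the genes whose groups overlap.

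The other 6 mitochondrial synthetases did not pass. Iars2, the isoleucine enzyme, averaged 48.5 ± 3.7 CPM in CLP and 50.5 ± 4.8 CPM in sham (SD, n = 4 each; log2 fold change -0.06, adjusted p = 0.631 in edgeR). The tyrosine enzyme Yars2 (-0.29, adjusted p = 0.238), the tryptophan enzyme Wars2 (-0.04, adjusted p = 0.833), the phenylalanine enzyme Fars2 (0.20, adjusted p = 0.327) and the serine enzyme Sars2 (0.20, adjusted p = 0.341) likewise stayed above the threshold in edgeR. A test that misses the threshold does not show equal levels, and the standard errors of the last 4 log2 fold changes were 0.14 to 0.19.

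Lars2, the mitochondrial leucine enzyme, could not be read at this spread. It was at 41.7, 32.9, 24.7 and 200 CPM in the CLP libraries, against 36.9, 222, 34.0 and 32.8 CPM in the sham libraries. CLP replicate 4 and Sham replicate 2 stood far above the other 6 libraries, and the log2 fold change was -0.13 with a standard error of 0.96 (adjusted p = 0.929 in edgeR). The same libraries were the highest of their groups for mt-Rnr2, the mitochondrial 16S ribosomal RNA, which was at 253.1, 235.0, 222.8 and 377.4 CPM in CLP, against 202.6, 345.3, 171.5 and 182.0 CPM in sham libraries. An Ensembl row without a symbol, ENSMUSG00000119584, was at 1422, 792.6, 534.7 and 4688 CPM in CLP, against 903.5, 5059, 656.7 and 855.0 CPM in sham libraries. Across the 8 libraries, log2 CPM of Lars2 had a Pearson correlation of 0.884 with mt-Rnr2 and 0.982 with the unnamed row, over points that share libraries and depth. Both rows were chosen after their values were seen, and the part of ribosomal RNA reads in the Lars2 counts was not tested. Leaving out CLP replicate 4 moved its log2 fold change to -1.30 and leaving out Sham replicate 2 moved it to 1.14, without a call in either.

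**Figure D3:**
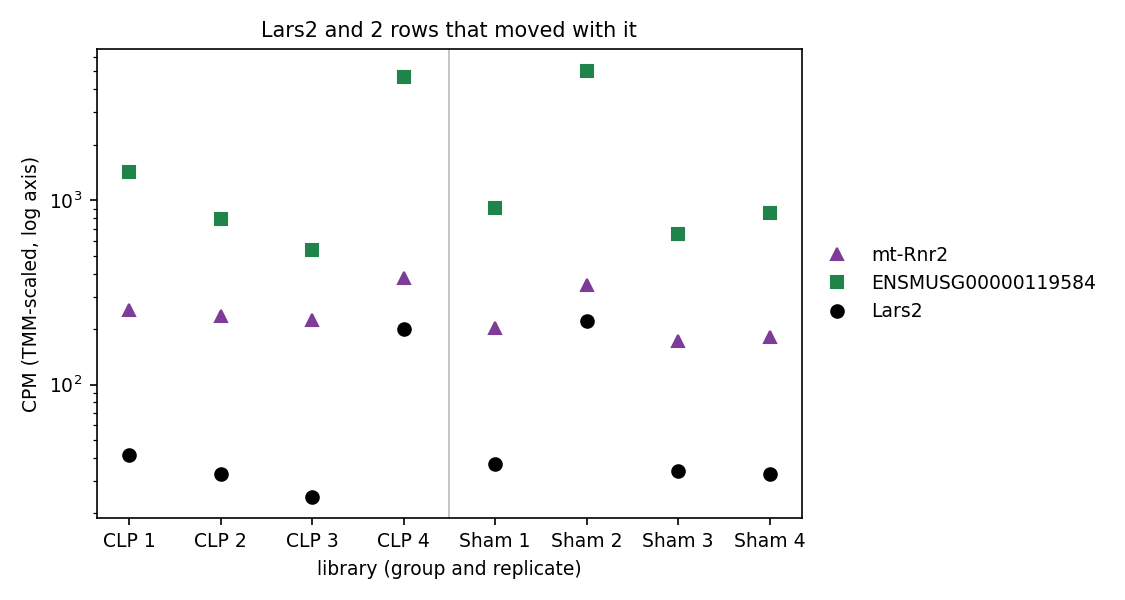
Level in CPM on a log axis of Lars2, mt-Rnr2 and the unnamed row ENSMUSG00000119584 in each of the 8 libraries, CLP left and sham right. All 3 are highest in their group in CLP replicate 4 and Sham replicate 2.

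Of the cytosolic enzymes, Eprs rose. It encodes the fused enzyme for glutamate and proline, a member of the multisynthetase complex. It was at 120.5, 112.1, 122.9 and 127.5 CPM in the CLP libraries, against 95.0, 84.9, 93.0 and 89.3 CPM in the sham libraries. All CLP libraries were above all sham libraries, and the log2 fold change was 0.41 (SE 0.07, adjusted p = 0.000647 in edgeR). Scaling decides this call, since without TMM factors, by library totals alone, the log2 fold change was 0.10 (adjusted p = 0.226), when all genes tested shifted by a median of -0.32.

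Qars, the glutamine enzyme of the same complex, was at 64.4, 65.3, 55.6 and 62.1 CPM in the CLP libraries, against 53.5, 54.6, 54.4 and 51.1 CPM in the sham libraries. CLP replicate 3 came close to the sham libraries, and the log2 fold change was 0.21 (SE 0.07, adjusted p = 0.0371 in edgeR). With library totals Qars turned to -0.11 without a call, and its call was lost without any 1 of CLP replicates 1, 2 and 4 and Sham replicates 2 and 4, at an adjusted p of up to 0.0873. Iars, the isoleucine enzyme of the complex, was at 42.5, 41.8, 47.2 and 41.5 CPM in CLP, against 52.9, 46.4, 48.9 and 51.8 CPM in sham libraries. The groups overlapped, and the log2 fold change was -0.21 (SE 0.08, adjusted p = 0.0487 in edgeR). The call of Iars was lost without any 1 library except CLP replicate 3 (adjusted p up to 0.172). The count of 3 changed cytosolic genes went to 1 without CLP replicate 1, CLP replicate 4, Sham replicate 2 or Sham replicate 4.

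The 17 cytosolic genes that did not pass had log2 fold changes of -0.23 to 0.18. Nars, which charges asparagine and was the most abundant synthetase per kilobase, was at 174.2, 187.6, 157.4 and 165.3 CPM in CLP, against 165.0, 167.0, 157.0 and 149.1 CPM in sham libraries (log2 fold change 0.10, adjusted p = 0.303 in edgeR). The groups overlapped for Nars. Those below 0 were Hars, Sars (-0.20), Yars (-0.15), Cars (-0.13), Lars (-0.10), Dars (-0.08), Gars (-0.08), Farsb (-0.07), Vars (-0.06), Mars (-0.05), Wars (-0.05), Aars (-0.02) and Tars (-0.02). Those above 0 were Nars, Kars (0.13), Farsa (0.17) and Rars (0.18). Farsa and Farsb, the subunits of the cytosolic phenylalanine enzyme, thus had log2 fold changes of 0.17 and -0.07, both without a call. With library totals, 15 cytosolic genes were called lower and 0 higher, with a median log2 fold change of -0.38 where that of all genes was -0.37. The 17 mitochondrial genes then had a median of -0.82 and 13 were called lower.

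Within the multisynthetase complex, 2 of 8 members were higher and 1 lower (median log2 fold change 0.04), a share near the 43.3% of all genes called. The 12 cytosolic genes outside it did not pass (median -0.07). By class, 5 of 9 mitochondrial class I genes (median -0.47) and 6 of 8 class II genes (median -0.64) were lower, beside 23.5% of all genes and 33.1% of those at 2 to 20 CPM. These splits are descriptions, and their differences were not tested.

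Per kilobase of transcript, the mitochondrial synthetases were at 0.608 (Mars2) to 20.1 (Lars2) CPM over all 8 libraries, with a median of 3.88, and the cytosolic ones at 4.34 (Cars) to 60.2 (Nars) CPM, with a median of 15.4. The mean of Lars2 includes its high values in CLP replicate 4 and Sham replicate 2, and the next mitochondrial gene was Iars2 at 9.05 CPM per kilobase. The summed level of the 20 cytosolic genes, in CPM without a length correction, was 1052 ± 13 in CLP and 1028 ± 38 in sham (SD, n = 4 each), and the groups overlapped. The sum of all 17 mitochondrial genes was 248.1 ± 83.2 CPM in CLP and 309.8 ± 91.2 CPM in sham, and the groups overlapped. Without Lars2, left out after its values were seen, the sum of the other 16 was 173.3 ± 7.9 CPM in CLP and 228.4 ± 12.4 CPM in sham, which puts CLP at 75.9% of sham without overlap.

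Taking each cytosolic gene over its mitochondrial partner within a library removes the library scaling, so the ratio does not depend on TMM or library totals. Of 18 such pairs, 13 had a higher mean log2 ratio in CLP than in sham, with a median difference of 0.46. The ratio does not remove the downward lean of less abundant genes. The median log2 fold change was -0.26 for all genes at 2 to 20 CPM and 0.04 for those at 20 to 200 CPM. The part of this lean in the ratios was not tested. Eprs over Pars2 had log2 ratios of 7.12, 8.40, 7.88 and 8.74 in the CLP libraries, against 5.01, 4.37, 4.54 and 4.65 in the sham libraries. That ratio was 10.5-fold higher in CLP, with no overlap. Eprs over Ears2 was 2.39-fold, Hars over Hars2 1.81-fold, Tars over Tars2 1.73-fold, Rars over Rars2 1.6-fold, Aars over Aars2 1.6-fold and Cars over Cars2 1.29-fold higher in CLP, each with all CLP libraries above all sham libraries. Mars over Mars2 was 1.85-fold higher on average, but its groups overlapped. The lowest difference was that of Sars over Sars2, with a mean log2 ratio of 2.61 ± 0.38 in CLP and 3.00 ± 0.15 in sham (SD, n = 4 each) and overlapping groups. These ratios were not tested, and each shares its counts with the fold changes above.

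**Figure D4:**
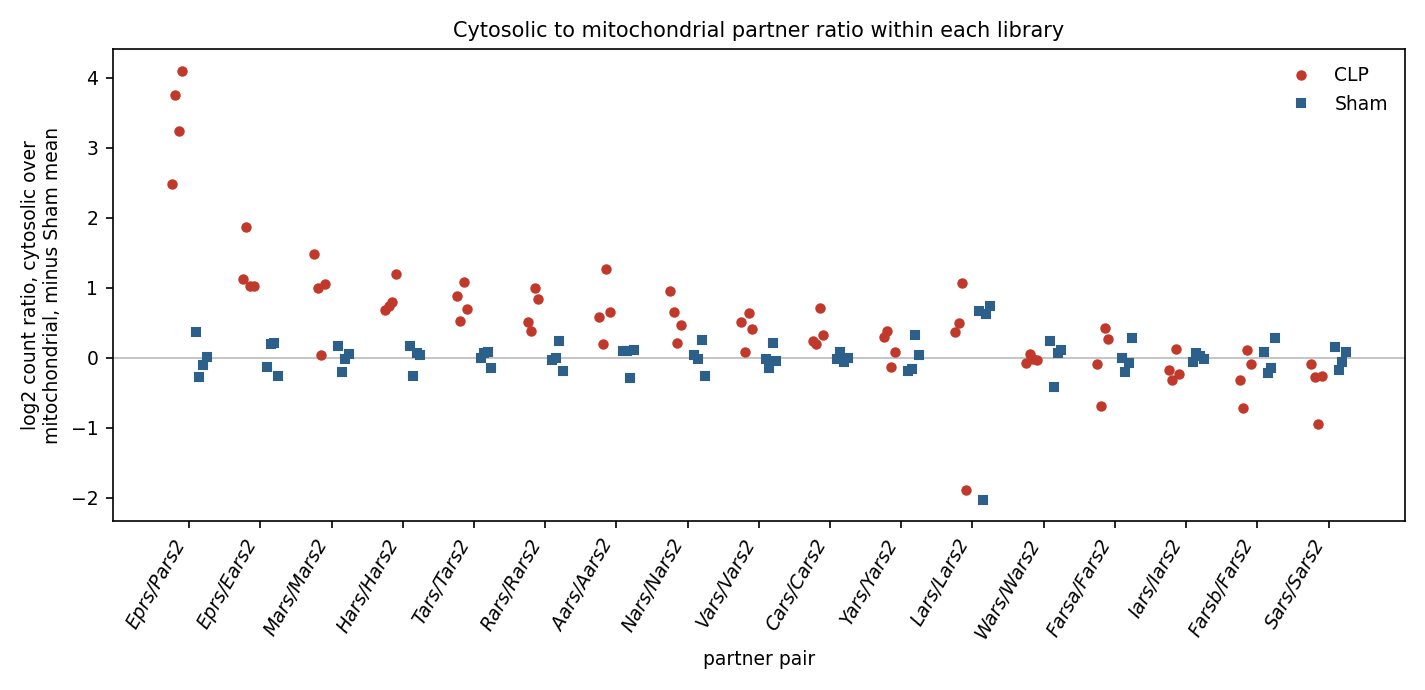
Log2 ratio of cytosolic over mitochondrial counts for 17 of the 18 partner pairs, each pair centred on its sham mean, with 1 point per library (CLP circles, sham squares). Eprs/Pars2 stands furthest above 0 in CLP, and in the Lars/Lars2 pair CLP replicate 4 and Sham replicate 2 fall far below the others.

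Companion lists of tRNA and translation genes were read beside the synthetases. All 4 genes tested that complete charging in mitochondria were lower, beside 23.5% of all genes. All 4 lay at a mean of 2 to 20 CPM, where 33.1% of genes were lower. They were the subunits of the amidotransferase that makes mitochondrial glutaminyl-tRNA (Qrsl1, Gatb and Gatc) and Mtfmt, which formylates the initiator methionyl-tRNA. Gatc was at 5.57, 5.16, 3.73 and 3.97 CPM in CLP, against 11.5, 12.2, 11.9 and 12.5 CPM in sham libraries, and every CLP library lay far below the sham libraries (log2 fold change -1.38, SE 0.16, adjusted p = 4.93e-05 in edgeR). Gatb, the most abundant of the 4, averaged 8.0 ± 0.89 CPM in CLP and 13.8 ± 0.33 CPM in sham (SD, n = 4 each; log2 fold change -0.78, adjusted p = 0.000399 in edgeR). Mtfmt was lower by 0.85 and Qrsl1 by 0.75 on the log2 scale (adjusted p = 0.0257 and 0.0333). Both calls were lost without any 1 of CLP replicates 1, 2 and 4 and Sham replicates 2 and 3, which left 2 of 4.

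In the mitochondrial tRNA maturation list 3 of 8 genes were lower and 0 higher (median log2 fold change -0.31), beside 23.5% lower among all genes. That share is near the 33.1% lower among all genes at 2 to 20 CPM, a range that Trnt1 (22.0 CPM) and Elac2 (21.6 CPM) exceed. The lower count was 5 without CLP replicate 3 and 7 with library totals. The wobble-base modifier Gtpbp3 fell to 4.84 ± 1.39 CPM in CLP, against 12.9 ± 1.2 CPM in sham (SD, n = 4 each; log2 fold change -1.41, adjusted p = 0.000169 in edgeR). The isopentenyl transferase Trit1, which also modifies cytosolic tRNA, fell to 7.99 ± 1.28 CPM in CLP, against 18.6 ± 1.0 CPM in sham (log2 fold change -1.22). Trnt1, the CCA-adding enzyme and most abundant member, did not pass (-0.31, adjusted p = 0.0533). In the cytosolic tRNA maturation and export list, 6 of 15 genes were lower and 2 higher (median -0.32), beside 23.5% lower and 19.8% higher among all genes and 33.1% lower among those at 2 to 20 CPM. With library totals 10 were lower and 0 higher, and with TMM factors 0 or 1 were higher without any 1 of CLP replicates 1 and 4 and Sham replicates 2, 3 and 4. The splicing endonuclease subunits Tsen34 (-0.85, adjusted p = 0.000107) and Tsen15 (-0.75, adjusted p = 0.00863) fell in edgeR, while the RNA-binding chaperone Ssb was higher by 0.30 (adjusted p = 0.0201, lost without CLP replicate 4 and with library totals). Nsun2, a tRNA methyltransferase and the most abundant member, did not pass (0.23, adjusted p = 0.0659).

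Elongation factors bring charged tRNA to the ribosome and move it along, and the list also holds related factors with other roles, among them Eef1b2, Tsfm and Gfm2. Of 9 tested, the cytosolic Eef1a1, Eef1b2 and Eef2 were higher and the mitochondrial Tsfm and Gfm2 lower, beside 19.8% higher and 23.5% lower among all genes. The mitochondrial Tufm (log2 fold change -0.28, adjusted p = 0.104) and Gfm1 (-0.05, adjusted p = 0.667) did not pass in edgeR. Nor did the cytosolic Eef1d (0.10, adjusted p = 0.358) and Eef1g (0.18, adjusted p = 0.0935). Eef1a1, the most abundant, averaged 3063 ± 201 CPM in CLP and 2420 ± 168 CPM in sham (SD, n = 4 each; log2 fold change 0.34, adjusted p = 0.00606 in edgeR). Eef2 was likewise higher by 0.34. Tsfm fell by 0.76 (adjusted p = 0.00134) and Gfm2 fell by 0.58 (adjusted p = 0.00064) on the log2 scale. With library totals, 0 of the 9 were higher and 5 lower, and without CLP replicate 4 and Sham replicate 2 together 0 were higher. Of the scaffold proteins of the multisynthetase complex, Aimp2 fell by 0.66 on the log2 scale (adjusted p = 0.0173 in edgeR, with the call lost without CLP replicate 1, Sham replicate 2 or Sham replicate 4), while Aimp1 (0.00, adjusted p = 0.987) and Eef1e1 (0.41, adjusted p = 0.0881) did not pass. Among 4 tested editing and synthetase-like genes, where 23.5% of all genes were lower, the D-aminoacyl-tRNA deacylase Dtd2 (-0.99, adjusted p = 0.00123) and Prorsd1 (-0.96, adjusted p = 0.00046) fell in edgeR, and Dtd1, the most abundant, did not pass (0.15, adjusted p = 0.523).

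**Figure D5:**
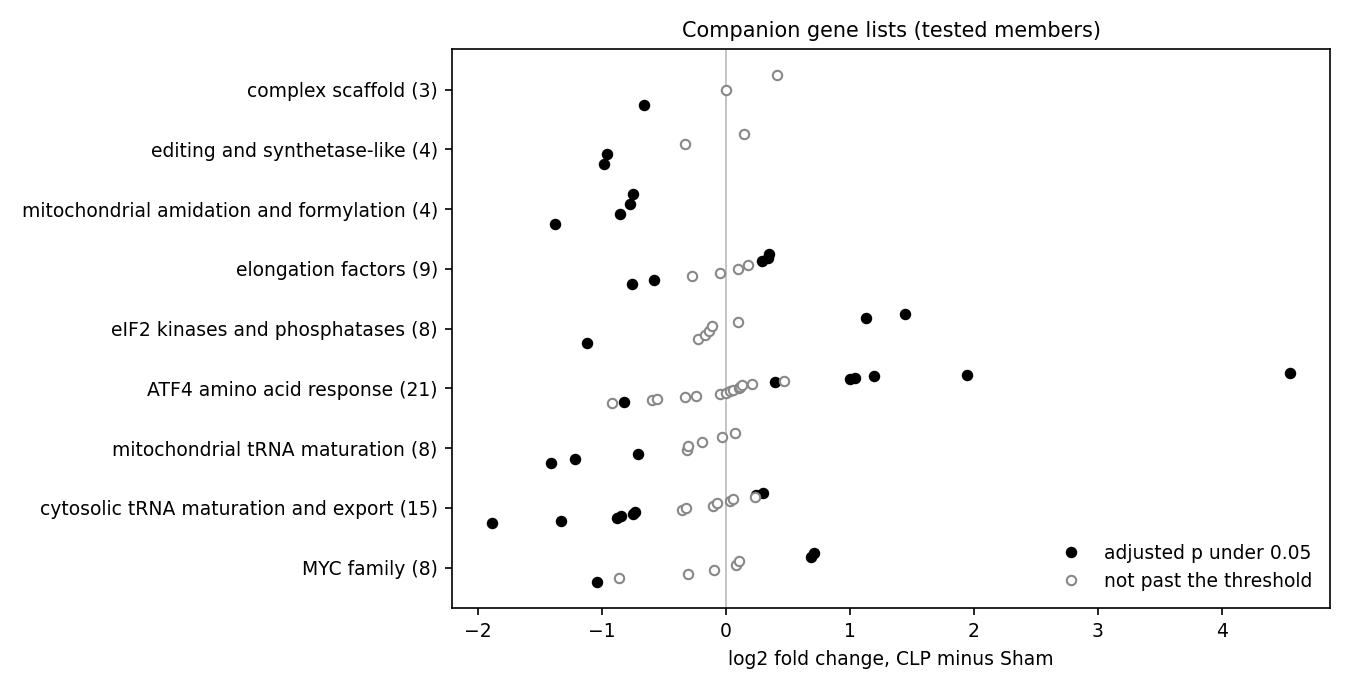
Log2 fold change, CLP minus sham, of the tested members of 9 companion gene lists, with the number of genes tested in brackets. Filled points passed an adjusted p of 0.05 in edgeR; vertical spread within a list only separates the points. All 4 genes of mitochondrial amidation and formylation lie below 0, and Slc7a11 lies furthest right at 4.55.

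Atf4 mRNA rose while the cytosolic synthetases, textbook targets of ATF4, had a median log2 fold change near 0 with TMM factors. With library totals that median was -0.38, beside -0.37 over all genes tested. ATF4 protein was not measured. Atf4 was at 216.0, 221.8, 286.4 and 255.1 CPM in the CLP libraries, against 110.8, 111.1, 135.2 and 117.9 CPM in the sham libraries. All CLP libraries were above all sham libraries (log2 fold change 1.04, SE 0.10, adjusted p = 2.1e-05 in edgeR). Of 21 tested genes in the ATF4 amino acid response list, Atf4 included, 6 were higher and 1 lower, with a median log2 fold change of 0.10, beside 19.8% higher and 23.5% lower among all genes and 26.4% higher among those at 20 to 200 CPM. By library totals the list had 5 higher and 4 lower genes. The cystine transporter Slc7a11 was at 65.1 ± 26.6 CPM in CLP and 2.76 ± 0.28 CPM in sham (SD, n = 4 each; log2 fold change 4.55, adjusted p = 2.21e-05 in edgeR), and the arginine transporter Slc7a1 was higher by 1.20. Cebpb, the most abundant member, encodes an inflammatory transcription factor and was higher by 1.00. For Asns, the asparagine synthetase that stands for this response in textbooks, the log2 fold change was -0.33 with a standard error of 0.54 (adjusted p = 0.657) and it was named after its value was seen. Asns was at 6.13 CPM in Sham replicate 4, against 1.19 to 2.53 CPM in the other sham libraries. With 1 library left out, its log2 fold change ranged from -0.78 to 0.35. Ddit3 (CHOP) was the lower member (-0.82, adjusted p = 0.00339), and its exons overlap those of Mars on the other strand. The list of eIF2 kinases and phosphatase subunits also holds Gcn1l1 and Impact, which are neither. In it, Ppp1r15b and Ppp1r15a, which help to remove the phosphate from eIF2, rose by 1.45 and 1.13 on the log2 scale. The kinase Eif2ak3 (PERK) fell by 1.12 on that scale, while the other 5 of 8 did not pass, where 43.3% of all genes changed. The lower count was 5 in this list with library totals and 2 without CLP replicate 3, and 2 in the ATF4 list without CLP replicate 2. With 1 library left out, the higher count of the ATF4 list was 6 to 8.

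Promoter sequence was looked at because ATF4 binds a known element. RefSeq promoter windows (GRCm38.p6, 250 bases before to 50 after the start) were matched for 26 of the 37 genes, 12 cytosolic and 14 mitochondrial. The C/EBP-ATF response element, searched as TGATGNAA on both strands, was found in 5 of the 12 cytosolic and 0 of the 14 mitochondrial genes, and in 4.51% of the 27025 genes with a window. Of these sites, 4 are printed 5′ to 3′ on the gene's strand in windows of 30 bases, with the element in capitals, in the order Gars (chr6:55037960-55037989, plus strand), Tars (chr15:11399655-11399684, minus strand), Yars (chr4:129189895-129189924, plus strand) and Iars (chr13:49682126-49682155, plus strand).
Gars: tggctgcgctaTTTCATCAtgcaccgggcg
Tars: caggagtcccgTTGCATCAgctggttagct
Yars: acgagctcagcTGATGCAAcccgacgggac
Iars: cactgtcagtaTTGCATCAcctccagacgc
The element starts 30 bases before the annotated start in Gars and 15 bases before it in Tars, and it lies downstream of the start in Yars and Iars. Of the 5 genes with the element, Aars (log2 fold change -0.02), Gars (-0.08), Tars (-0.02) and Yars (-0.15) did not pass and Iars was lower (-0.21). Eprs and Qars, the genes that were higher, have windows without these letters.

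Motifs of 3 other factors or families were searched in the same windows. The E-box CACGTG, bound by MYC and related factors, was found in Ears2 among the mitochondrial and in Aars, Farsb, Iars and Tars among the cytosolic genes, and in 8.09% of all genes. The motif of NRF1, a regulator of nuclear genes for mitochondria, searched by its consensus, was found in Mars2, which fell, and in Iars2, which did not pass. It was also found in 3 cytosolic genes and in 5.19% of all genes. The ETS motif CCGGAAGT was found in 1 gene of each set, Rars2 and Farsa, and in 4.31% of all genes. Both strands were searched for each, and a match is a description of letters and not a bound site. The sites of the fallen genes Mars2 (chr1:55237169-55237198, plus strand) and Rars2 (chr4:34614941-34614970, plus strand) are shown with the motif in capitals.
Mars2: ccgtccagctGCGCACGCGCcctttcccgt
Rars2: aagcagaggcgACTTCCGGcgcggaggcgg
In the MYC family list, Myc (0.71, adjusted p = 0.000563) and the antagonist Mxi1 (0.68, adjusted p = 0.000172) were higher and the antagonist Mxd4 was lower (-1.04, adjusted p = 0.000249) in edgeR, out of 8 tested, where 43.3% of all genes changed. The lower count was 2 without CLP replicate 3 or Sham replicate 2 and 4 with library totals. Max, the shared partner and most abundant member, did not pass (-0.31, adjusted p = 0.0509).

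Wars, the cytosolic tryptophan enzyme, is known in human cells as a gene induced by interferon gamma. It was at 36.1, 36.1, 36.1 and 41.6 CPM in the CLP libraries, against 42.5, 35.9, 37.3 and 39.6 CPM in the sham libraries. The groups overlapped (log2 fold change -0.05, SE 0.09, adjusted p = 0.647 in edgeR). In the interferon gamma list, 8 of 9 tested genes were higher and 0 lower, beside 19.8% of all genes higher. Cd274 (PD-L1), the most abundant member, rose by 3.12, Socs1 by 2.44 and the guanylate-binding protein Gbp5 by 2.31 on the log2 scale.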

How the data were processed

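RNA-seq of sorted splenic red pulp macrophages was analysed in 8 libraries, 4 CLP and 4 sham, grouped by sample title. The authors deposited 1 table of raw counts, with a row for each Ensembl gene ID. FastQC, STAR 2.7.10b, featureCounts, DESeq2 and the build mm39 are named in the submitters' processing notes, without roles. Libraries were made with a stranded kit, per the labels' protocols. The strand setting of the counting is not given in the sources used here. For the 14 synthetase genes with exons that overlap a gene on the other strand (GENCODE mouse release 21), and for Aars, which overlaps Exosc6 on its own strand, reads cannot be assigned with certainty. That release, of an older build, gave symbols to 52081 of 55414 rows and 1 transcript length a gene (the APPRIS principal transcript with the longest coding sequence).

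The main test was edgeR 4.0.16 under R 4.3.3 on the deposited counts (filterByExpr, 14004 genes, TMM, robust quasi-likelihood F-test, Benjamini-Hochberg over all genes tested, threshold 0.05). The SE is the absolute log2 fold change over the square root of F. Ratios of partners used counts plus 0.5. Alternatives were DESeq2 1.42.0, limma-voom 3.58.1, other scalings and filters, a replicate block, 1 surrogate variable (sva 3.50.0) and each library left out, and, added after the data were seen, CLP replicate 4 and Sham replicate 2 left out together. The edgeR step was tested on simulated data. No pair of libraries within a group agreed within counting error (chi-square over its degrees of freedom was at least 8.48). The members and lists were chosen with earlier results of these data known. By the rule for named genes, values per library are given for called members, up to the 8 largest changes in each compartment, and for the most abundant per kilobase, and from each list the most abundant gene and up to 3 called genes with the largest changes (mean of at least 5 CPM) are named. Other list genes were named after their values were seen. Of the companion lists' genes, 10 did not pass the filter and 1, Mrpp3, had no row by that symbol. The marker lists held further genes that did not pass it. 1 gene's own values and 1 promoter site are not reported here. Figures were drawn with matplotlib 3.10.9.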

Additional observations from a re-analysis of the deposited data

Results flagged for a closer look

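In 74 sets of 4 libraries (37 genes in each group), 5 had a library whose gap to its nearest neighbour, as a share of the range, passed Dixon's critical value, and chance gives about 1 in 20 such sets. Lars2 was flagged in CLP replicate 4 (200 CPM) and in Sham replicate 2 (222 CPM), the libraries that were also highest in mt-Rnr2. Wars2 was flagged in Sham replicate 2 (10.99 CPM). Wars was flagged in CLP replicate 4 (41.6 CPM), where the other CLP libraries were at 36.1 CPM each. Iars was flagged in CLP replicate 3 (47.2 CPM), the library whose removal alone kept its call.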

How the results depend on the processing

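All 11 mitochondrial calls held in DESeq2, limma-voom, with DESeq2 size factors, either other filter, the replicate block and 1 surrogate variable, and 13 were lower with library totals. With each library left out, 7 to 11 mitochondrial genes, 1 to 3 cytosolic genes and 8 to 14 synthetases in all changed (7 to 12 lower, 1 to 2 higher; cytosolic 0 to 1 lower and 1 to 2 higher). With library totals, 1286 genes were higher and 6435 lower, and 28 synthetases were lower and 0 higher, 15 of them cytosolic. Fars2 (-0.11), Farsa (-0.15), Kars (-0.19), Nars (-0.22, adjusted p = 0.0282), Qars (-0.11), Rars (-0.13), Sars2 (-0.12), Aimp1 (-0.31), Dtd1 (-0.17), Ssb (-0.0178) and Nsun2 (-0.0848) turned negative there. All genes tested shifted by a median of -0.32 under library totals. TMM factors were 0.873 to 0.915 in the CLP and 1.08 to 1.15 in the sham libraries, and which scaling is nearer the truth was not tested. Aars turned to 0.0142 in DESeq2 and 0.0150 with its size factors, and Tars to 0.0157 in both. Aimp1 turned to -0.0227 with no filter on low counts and to -0.0022 in the replicate block. The cytosolic count was 1 (Eprs, 1 higher and 0 lower) with no filter and in the replicate block, and 0 were lower in DESeq2, limma-voom, with DESeq2 size factors or with 1 surrogate variable. Correlations of same-numbered deviations were -0.192 to 0.261. They were not set against differently numbered libraries, so they cannot decide whether replicate numbers pair the libraries. The replicate block called 12 synthetases and 6089 genes. Without CLP replicate 4 and Sham replicate 2 together, 8 synthetases changed (7 lower, all mitochondrial, and 1 higher, cytosolic, with 0 cytosolic lower), and Wars2 turned to 0.0103. Leaving out 1 library moved uncalled log2 fold changes across 0 for Aars (-0.0368 to 0.0366), Gars (-0.13 to 0.0144), Iars2 (-0.10 to 0.0273), Lars2 (-1.30 to 1.14), Mars (-0.0855 to 0.0346), Tars (-0.11 to 0.0518), Wars (-0.10 to 0.0272), Wars2 (-0.10 to 0.10) and Aimp1 (-0.0844 to 0.0734). Among list genes named after their values were seen, Asns (-0.78 to 0.35) and Gfm1 (-0.07 to 0.04) crossed 0 too. With 0 added to the counts, the 18 partner ratios moved by less than their replicate SD. Leaving out 1 of 4 libraries cannot move a group mean by its SD, so that yardstick cannot judge the ratios with a library left out. With 1 library left out, the CLP minus sham difference in log2 ratio crossed 0 for Lars/Lars2 (-0.66 to 0.65), Farsa/Fars2 (-0.17 to 0.20) and Wars/Wars2 (-0.16 to 0.06). DESeq2 gave no adjusted p for Lars2. Depth limits Pars2 most, with 4 to 13 reads in CLP.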

Other observations

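Mitochondrial synthetases serve the translation of mRNAs encoded by mitochondrial DNA. Of those mRNAs, a set chosen after the data were seen, 13 are in the table, and 6 of them are listed at 0 counts in all 8 libraries and were not tested. The other 7 were all higher after CLP in edgeR (log2 fold changes 0.27 to 0.49), beside 19.8% of all genes. The complex I subunit mt-Nd1 averaged 485.5 ± 32.9 CPM in CLP and 345.7 ± 19.6 CPM in sham (SD, n = 4 each; log2 fold change 0.49, adjusted p = 0.000377 in edgeR). With library totals, 0 of the 7 were higher and 0 lower, with a median of -0.02 where the median of all genes was -0.37.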
